A study of Mus musculus with 20 samples.

Results

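The nuclear-encoded subunits of the respiratory chain and of the ATP synthase were followed in dermal lymphatic endothelial cells (LECs) at 4 times of the day. They were taken by symbol, as every row of the count files whose name starts like a subunit gene of complex I (Nduf), II (Sdh), III (Uqcr), IV (Cox4 to Cox8) or V (Atp5) and is not marked as a pseudogene. This gave 84 genes of the 24062 symbols, 37 for complex I, 4 for complex II, 8 for complex III, 18 for complex IV and 17 for complex V. The rule also took Atp5s and Atp5sl, which are not structural subunits, it left out Ndufab1 and Cyc1, which are, and by its name it put Ndufa4, a subunit of complex IV, and its relative Ndufa4l2 with complex I. LECs were sorted from mouse ear skin as live CD31+podoplanin+ cells, and their RNA was amplified as full-length cDNA and sequenced. Each of the zeitgeber times (ZT, hours after lights on) ZT1, ZT7, ZT13 and ZT19, the first pair in the light and the second in the dark, had 5 replicates, each a separate pool of ears. All mice were untreated wild-type C57BL/6 animals at postnatal day 56 under a light-dark cycle, and the time of day is the one condition the labels vary, so that effects of light and of an internal rhythm cannot be told apart.

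The chain lies in the inner mitochondrial membrane. Complexes I and II pass electrons from NADH and succinate to ubiquinone, complex III hands them on to cytochrome c, and complex IV reduces oxygen, while complexes I, III and IV pump the protons that drive complex V to make ATP. Endothelial cells are known for making much of their ATP by glycolysis, and lymphatic endothelium also relies on respiration for its metabolism. Complex II is also an enzyme of the citric acid cycle and is encoded in the nucleus alone. The other complexes combine nuclear subunits with subunits encoded in mitochondrial DNA, and of 26 mitochondrially encoded symbols looked for, 0 were rows of the files, so they were not analysed here.

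Genes for the chain are known targets of the transcription factors NRF1, GABPA (an ETS factor) and YY1, and their core motifs were searched on both strands in the RefSeq promoters (GRCm38.p6, from 250 bases before to 50 bases after the start), which were found for 66 of the 84 genes. Promoters of other subunit genes, Cox4i1, Sdhc, Uqcrc2 and Atp5f1 among them, were not used here. The NRF1 letters GCGCANGCG stood in at least 1 promoter of 20 of the 66 genes (30.3%), against 11.3% of the 14157 tested genes with a promoter. The ETS letters CCGGAAG stood in 16 (24.2%), against 14.8%, and the YY1 letters AAGATGGC in 9 (13.6%), against 4.05%. At least 1 of the 3 was present for 37 of the 66 subunit genes (56.1%), 26.3% of tested genes and 56.3% of cytosolic ribosomal protein genes. More than 1 promoter is listed for 5 of the 66 genes (7.58%) and for 17.9% of tested genes. With only the first one listed for each gene, NRF1 letters stood in 19 (28.8%, against 10.4% of tested genes), ETS letters in 15 (22.7%, against 13.6%), YY1 letters in 8 (12.1%, against 3.67%) and any of them in 35 (53.0%, against 24.4%). The reverse letters of the YY1 and ETS motifs, GCCATCTT and CTTCCGG, can overlap by their shared CTT, and a palindromic NRF1 match counts once on each strand. Exons on the opposite strand lay within the 250 bases before the start for 19 of the 66 genes (28.8%, against 17.9% of tested genes), as for Sdhd beside Timm8b and Sdha beside Ccdc127. Stretches free of exons just upstream of 4 subunit genes are shown, 2 short transcripts of high level with matches (Cox6a1 with NRF1 matches, Uqcr11 with an ETS match), Atp5e with an ETS match, and Atp5b, the gene with the most counts, in whose stretch none of the letters stood. Capitals mark the matched letters, which are a description and not a binding site.
Cox6a1, chr5:115348982-115349129, minus strand: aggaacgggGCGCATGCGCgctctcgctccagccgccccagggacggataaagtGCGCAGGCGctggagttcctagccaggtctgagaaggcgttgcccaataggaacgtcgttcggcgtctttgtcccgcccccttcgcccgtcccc
Uqcr11, chr10:80406831-80407000, minus strand: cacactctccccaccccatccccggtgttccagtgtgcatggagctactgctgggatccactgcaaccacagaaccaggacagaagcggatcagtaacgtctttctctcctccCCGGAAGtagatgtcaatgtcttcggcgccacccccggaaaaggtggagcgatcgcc
Atp5e, chr2:174464106-174464275, minus strand: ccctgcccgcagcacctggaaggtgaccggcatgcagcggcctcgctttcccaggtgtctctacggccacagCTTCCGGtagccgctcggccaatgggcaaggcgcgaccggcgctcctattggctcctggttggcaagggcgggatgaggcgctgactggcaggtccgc
Atp5b, chr10:128083103-128083272, plus strand: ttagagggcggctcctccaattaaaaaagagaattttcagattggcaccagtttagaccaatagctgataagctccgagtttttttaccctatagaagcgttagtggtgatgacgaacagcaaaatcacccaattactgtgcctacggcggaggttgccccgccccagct

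The 20 libraries held between 4475111 and 42002363 counts on genes. Leaving aside reads set apart for other reasons, genes held between 35.0% and 81.6% of the reads at ZT19 and between 20.2% and 29.5% at ZT1. The rest were counted on no feature, and whether they lie outside genes is not known, as the counting settings are not given. ZT7 replicate 2 (62.3%) and ZT13 replicate 5 (79.9%) stood furthest from the other libraries of their time points, so the counts for ZT19 are also given without these 2. ZT7 replicate 1 (37.7%) and ZT13 replicate 2 (39.7%) also lay above the remaining ones (12.7% to 17.5% and 20.1% to 22.9%). Once ZT7 replicate 2 and ZT13 replicate 5 are left out, only they still overlap with ZT19 in this share. Time of day and genic share are then hard to tell apart. The LEC markers Prox1 (3523 ± 833 normalized counts at ZT1, 2084 ± 773 at ZT19, SD, n = 5) and Lyve1 (19925 ± 5173 and 17532 ± 6865) were present throughout. Counts of 16 keratinocyte markers, all of them found, summed to between 10269 and 16845 CPM (counts scaled to a common total) at ZT19, 917 and 3670 at ZT13, 8313 and 20008 at ZT7 and 3590 and 6024 at ZT1. Counts of 10 leukocyte markers summed to between 5.00 and 23.96 CPM at ZT19, 27.1 and 62.6 at ZT1, 23.1 and 108 at ZT7 and 27.1 and 61.4 at ZT13. All 12 pericyte and smooth muscle markers had a fold below 0 from ZT1 to ZT19 (median -1.32), with sums of 84.8 to 209 CPM at ZT19 and 214 to 306 at ZT1, and Higd1b had 0 counts in all ZT19 libraries. The part that the leukocyte and pericyte markers play in the results was not tested. In such bulk samples, fewer cells of a type and less RNA per cell cannot be told apart.

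In these LECs the subunit genes made up between 0.778% (95% Wilson interval 0.772 to 0.785) of the gene counts in ZT13 replicate 1 and 3.85% (3.84 to 3.87) in ZT7 replicate 1, intervals that cover counting error only. Normalized counts (scaled by the TMM method to a common library size) were divided by transcript length to compare genes with each other. On this scale the small subunits stood highest, with 13528 per kb for Uqcr11 and 9913 for Uqcr10 of complex III, 12320 for Cox6a1 and 11480.0 for Cox4i1 of complex IV, and 11981 for Atp5k of complex V. Atp5b, the catalytic beta subunit of the ATP synthase, had the highest count per gene (13039 on average) and 6805 per kb. The Sdh genes were lower, from 2208 per kb for Sdhb, the iron-sulfur subunit, through 1253 for Sdhd and 1062 for Sdha to 259 for Sdhc. Ndufs5 had 10 counts in all, in 2 libraries, and its transcript shares 27.0% of its stretches of 100 bases with BC002163. Ndufs5, Cox8c and Cox6a2 did not pass the filter on low counts, and the other 81 genes were tested.

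**Figure D1:**
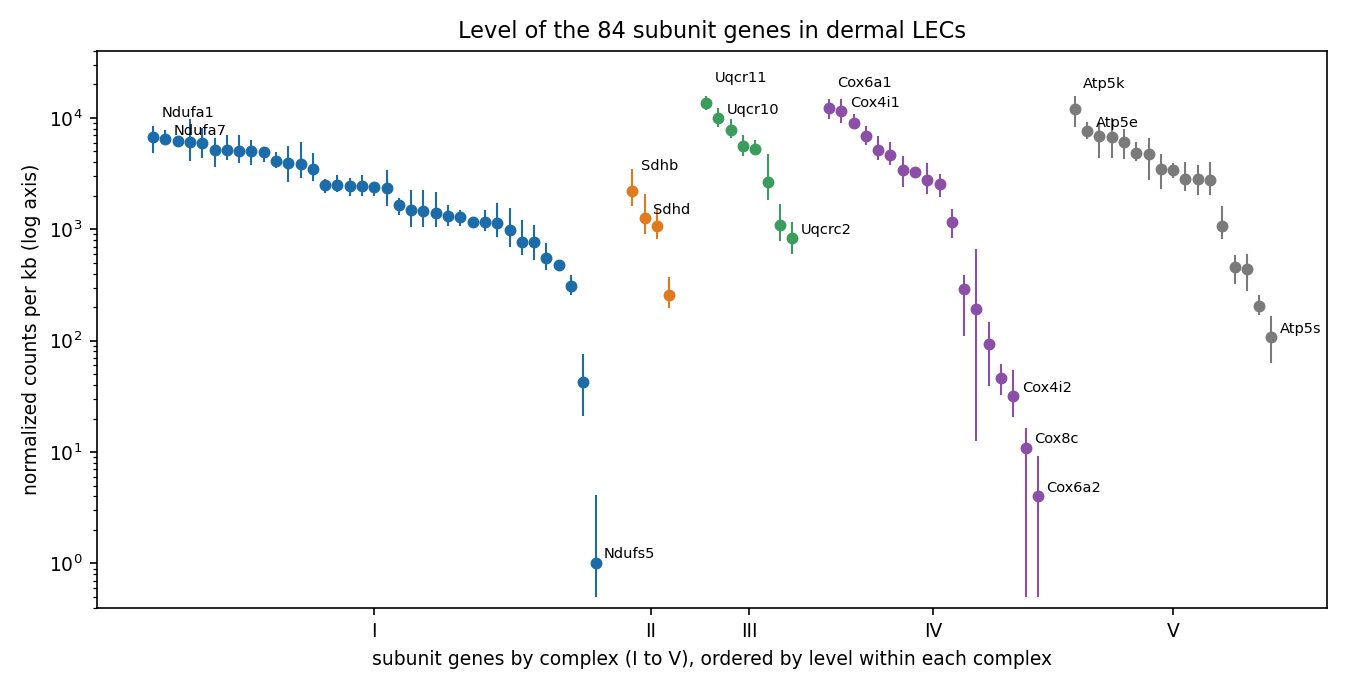
Level of each of the 84 subunit genes (mean normalized counts per kb over the 20 libraries, log axis), ordered within complexes I to V, with lines from the lowest to the highest time-point mean and values of 0 drawn at the lower end. Uqcr11, Cox6a1, Atp5k and Cox4i1 lie highest, from 11480.0 to 13528, the Sdh genes between 259 and 2208, and Ndufs5, Cox8c and Cox6a2 at the bottom.

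Alternative subunits of a family were compared per kb within each library. Cox4i1, the common form of COX4, made up a median of 99.7% of its family, and Cox4i2, the form induced by low oxygen in lung, at most 1.27%. Cox6a1 held a median of 100.0% over Cox6a2, the form of heart and muscle, and Cox8a 98.2% over Cox8b (1.45%) and Cox8c. Of the COX7A genes, Cox7a2 had a median of 76.4%, Cox7a2l, which is known from the assembly of supercomplexes, 22.2%, and Cox7a1, the muscle form, 0.642%. Cox6b1 held 97.3% and Cox6b2, a form of testis, 2.67%, with a highest value of 19.6% in 1 library. The 3 genes for subunit c of the ATP synthase ring stood at 64.0% for Atp5g3, 30.0% for Atp5g1 and 3.94% for Atp5g2, where 100% of the 100-base stretches of Atp5g2 and 57.3% of those of Atp5g1 also occur in other genes, so their counts are uncertain. Ndufa4 had 99.1% against 0.871% for Ndufa4l2. Counts were found in 18 of the 20 libraries for Cox7a1 and Cox8b, in 16 for Cox4i2, in 14 for Cox7b2, in 9 for Cox8c and in 5 for Cox6a2.

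No subunit gene passed an adjusted p of 0.05 in any comparison (edgeR's quasi-likelihood F-test, adjusted after Benjamini and Hochberg over 19209 genes). Among the 4 time points 0 of 81 passed, where 0.422% of all genes did, and the smallest adjusted p was 0.123, for Uqcrc1. At an unadjusted p under 0.05 the count was 17 of 81 (21.0%), against 15.7% of all genes, and DESeq2 called 2 genes, Uqcrc1 and Sdhd, against 2.97% of all genes. With the genic share of reads as a covariate the count at the unadjusted p was 4 of 81, where it was 1904 of 19209 genes, and with the keratinocyte and fibroblast marker levels as covariates 38, where it was 4069. It was 7 without ZT19 replicate 5, 11 without ZT19 replicate 4 and 27 without ZT7 replicate 1. The count over all genes can change with a library left out too. Where it is not given, here and below, such a change is not a result about the subunits. For a fitted cosine with a 24-h period, 0 of 81 passed, where 0.0312% of all genes did, and 17 (21.0%) had an unadjusted p under 0.05, against 9.24%. The fitted peaks of 16 of these 17 lay between 17.5 h after lights on (Ndufa8, an accessory subunit of complex I) and 22.4 h (Atp5o), and the peak of Cox7b2 lay at 2.29 h. The smallest adjusted p for the curve was 0.386 (Cox7b2), and its count at the unadjusted p was 6 without ZT19 replicate 5 and 39 without ZT7 replicate 1, again without counts over all genes.

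Of the 81 subunits, 65 had their highest mean at ZT19, where 5189 of the 19209 genes tested had theirs, while 11 were highest at ZT1, 4 at ZT13 and 1 at ZT7. Between ZT13 and ZT19 the median log2 fold of the subunits was 0.67, against -0.22 over all genes, and 75 of 81 had a fitted fold above 0. Between ZT7 and ZT19 it was 0.50, against -0.20, and between ZT1 and ZT19 0.44, against -0.39. Genes with a count above 0 numbered 12477 to 18768 in the ZT19 libraries and 19055 to 21525 at ZT1. They numbered 16147 to 21540 at ZT7 and 13309 to 21697 at ZT13. Without a filter on low counts the median of all genes was -0.39 from ZT13, -0.43 from ZT7 and -0.62 from ZT1. The all-gene median thus depends on scarce genes, and genes as abundant as the subunits were not set apart as a background. The 3 comparisons share the ZT19 libraries, and without ZT19 replicate 4 the 3 medians were 0.32, 0.15 and 0.11. With the keratinocyte and fibroblast marker levels as covariates the median from ZT1 to ZT19 turned to -0.62, with 59 of 81 subunits lower at ZT19, while those from ZT7 and ZT13 were 0.62 and 0.19, so no direction is given for ZT1 against ZT19. Without ZT13 replicate 2 the median from ZT13 was 1.08, and without ZT7 replicate 1 that from ZT7 was 1.22. With DESeq2's size factors or with total counts alone the medians of the subunits ran from 0.32 to 0.57 and kept their sign, while the median of all genes moved by more than 0.1 in 4 of the 6 cases, to between -0.43 and -0.23. With the genic share of reads as a covariate, most genes past the unadjusted p were higher at ZT19 in each of the 3 pairs, as given below. Without it most were lower, so the direction over all genes depends on the setting. The 3 medians between ZT1, ZT7 and ZT13 lay between -0.18 and -0.16, and those of ZT7 and ZT13 against ZT1 turned positive (0.16 and 0.04) with total counts alone. The sign also turned with the ribosomal covariate described below (0.24 from ZT1 to ZT7, 0.48 from ZT1 to ZT13 and 0.21 from ZT7 to ZT13), with the length offset described below (0.33 from ZT1 to ZT13 and 0.32 from ZT7 to ZT13) and with the marker covariates (0.44 from ZT7 to ZT13), and no direction is given for these pairs. All 6 medians, those with ZT19 included, were smaller than the SD within time points of each library's mean over the subunits (0.761 on the log2 scale).

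Between ZT13 and ZT19, early and late in the dark phase, 0 of 81 subunits passed the adjusted threshold, where 0.588% of all genes did, and the adjusted p of Uqcrc1 was 0.0902. At an unadjusted p under 0.05, 23 of 81 (28.4%) were higher at ZT19 and 0 lower, where 7.28% of all genes were higher and 19.2% had such a p in either direction. DESeq2 called 3, Uqcrc1 and Uqcrfs1 among them, all higher at ZT19, against 1.94% of all genes. The groups did not overlap for 4 of the 81, Atp5f1, Uqcrc2 and Uqcrfs1 among them, where 1.87% of all genes were separated in this direction. Without ZT7 replicate 2 and ZT13 replicate 5, a setting chosen after seeing the data, 7 of 82 tested subunits passed the adjusted threshold, among them Sdha, Sdhc, Sdhd, Uqcrc1 and Uqcrfs1, all higher at ZT19, where 4.16% of all genes were called as higher and 10.6% in either direction. With the keratinocyte and fibroblast marker levels as covariates, 4 of 81 subunits had an unadjusted p under 0.05, 3 of them higher at ZT19, where 622 of 19209 genes were higher and 3674 had such a p in either direction, and the median was 0.19, against -0.67 over all genes. Of the 16 keratinocyte markers, 7 passed the adjusted threshold as higher at ZT19 and 14 the unadjusted p, and Krt17 and Dsg3 had 0 counts in at least 1 library of ZT13. With the genic share of reads as a covariate, 17 subunits had an unadjusted p under 0.05 and all 17 were higher at ZT19, where 2083 of the 19209 genes were higher and 2652 had such a p in either direction. Without ZT19 replicate 5 the count at the unadjusted p was 7, without ZT13 replicate 1 it was 14 and without ZT13 replicate 2 it was 39.

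Between ZT7 and ZT19, 0 of 81 passed, where 0.0156% of all genes did, and the adjusted p of Uqcrc1 was 0.118. At the unadjusted p, 19 (23.5%) were higher at ZT19 and 0 lower, against 6.7% of all genes higher and 19.7% in either direction. DESeq2 called 5, Uqcrc1 and Uqcrc2 among them, against 0.955%, and without the 2 libraries that stood apart edgeR called 8 of 82 as higher, where 3.69% of all genes were called as higher and 12.1% in either direction. The keratinocyte markers of these time points overlapped, as given above, and with the marker covariates 23 of 81 subunits had an unadjusted p under 0.05 and were higher at ZT19, where 1503 of 19209 genes were higher and 4629 had such a p in either direction. With the genic share of reads as a covariate 5 of 81 had, all higher, where 1734 of 19209 genes were higher and 2085 had such a p in either direction. Without ZT19 replicate 5 the count at the unadjusted p was 10, without ZT7 replicate 5 it was 11 and without ZT7 replicate 1 it was 59 of 82, where 1592 of 19805 genes were higher.

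Between ZT1 and ZT19, 0 of 81 passed, where 0.0156% of all genes did, with 0.0930 as the smallest adjusted p (Uqcrc1). At the unadjusted p, 13 subunits were past the threshold, where 21.6% of all genes were, and 12 (14.8%) of them were higher at ZT19, against 7.25% of all genes, and Cox7b2 was lower. DESeq2 called 4 as higher, Ndufb8, Ndufs3, Sdhd and Uqcrc1, against 2.55%, and without the 2 libraries edgeR called 8 of 82 as higher, where 4.45% of all genes were called as higher and 9.37% in either direction. Without ZT19 replicate 5 the count at the unadjusted p was 6. With the marker covariates the median of all genes was -0.64, and 17 subunits had an unadjusted p under 0.05, of which 3 were higher at ZT19 and 14 lower, where 979 genes were higher and 3234 lower. With the genic share of reads as a covariate 3 of 81 had an unadjusted p under 0.05, all higher, where 1247 of 19209 genes were higher and 1745 had such a p in either direction. With the ribosomal protein level as a covariate, a setting described below, 49 of 81 were higher at the unadjusted p, where 1654 genes were. Ndufb8 and Atp5j passed the adjusted threshold, and the share of all genes that did so in this fit is not given here. With total counts alone 21 had an unadjusted p under 0.05, 20 of them higher, where 2147 genes were higher.

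In the pairs without ZT19, the count at the unadjusted p depended on the covariates. Without covariates it was 2 of 81 between ZT1 and ZT7, where 4.98% of all genes had one, and 0 at the adjusted threshold, where 0.00521% did. The 2 were Atp5b and Ndufa10, both lower at ZT7. Between ZT1 and ZT13 it was 3 (Atp5b, Atp5o and Cox7b2), all lower at ZT13, against 5.37%, and 0 at the adjusted threshold, against 0.0208%. Between ZT7 and ZT13 it was 0, against 2.59%, and 0 at the adjusted threshold, against 0.0937%. The highest and lowest folds among the more abundant subunits were 0.63 ± 0.73 (log2 fold ± SE) for Ndufa1 and -0.91 ± 0.42 for Atp5b from ZT1 to ZT7, and 0.39 ± 0.61 for Atp5j and -1.12 ± 0.51 for Atp5o from ZT1 to ZT13. From ZT7 to ZT13 they were 0.29 ± 0.42 for Ndufb10 and -0.55 ± 0.55 for Cox5b. Without ZT7 replicate 1, 18 of 82 subunits had an unadjusted p under 0.05 between ZT1 and ZT7, all lower at ZT7, where 1143 of 19805 genes were lower. With the marker covariates 46 of 81 did, all lower at ZT7 (median fold -1.17, against -0.15 over all genes), where 1831 of 19209 genes were lower, and 0 passed the adjusted threshold. Counts of 12 fibroblast markers summed to between 569 and 1743 CPM at ZT1 and between 102 and 488 at ZT7. Neither these nor the keratinocyte sums overlapped between ZT1 and ZT7, so marker level and time are hard to tell apart in this fit. With the ribosomal protein level as a covariate the direction turned, with 7 of 81 higher at ZT7 and 17 higher at ZT13 than at ZT1, where 337 and 540 genes were.

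**Figure D2:**
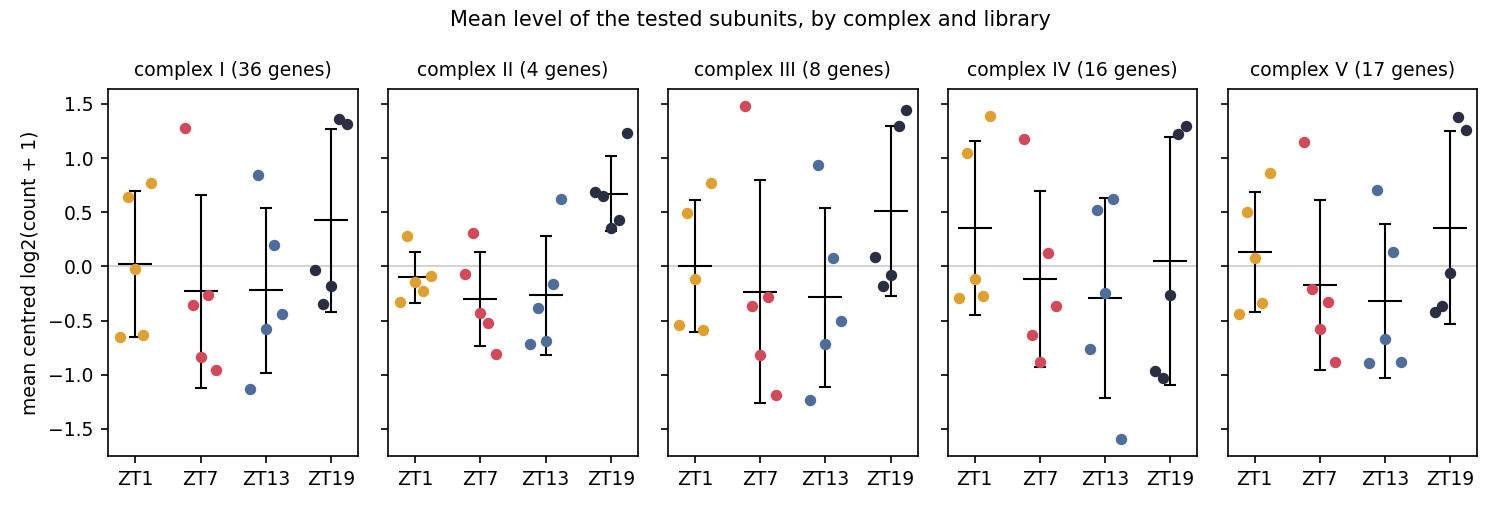
Mean over the tested genes of each complex of the centred log2(normalized count + 1), 1 point per library in replicate order, with bars for the mean ± SD of the 5 replicates of a time point. The 5 libraries of ZT19 lie between 0.36 and 1.23 for complex II, and between -1.03 and 1.30 for complex IV.

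In complex I, the NADH dehydrogenase, 35 of 36 tested subunits had a fold above 0 between ZT13 and ZT19 (median 0.62), as 42.1% of all genes had, and 8 an unadjusted p under 0.05, all higher. In this pair, as given above, 7.28% of all genes were higher at the unadjusted p and 19.2% passed it in either direction, which is the background for each complex below. Ndufv1, which binds NADH, had 2155 ± 837 at ZT13 and 3702 ± 599.6 at ZT19 (SD, n = 5), a log2 fold of 0.78 ± 0.34. Ndufa10, an accessory subunit, had 1157 ± 203 and 2199 ± 1069. Ndufa2, a short accessory subunit, had a fold of 0.14 ± 0.74. Ndufa1, a short transcript of 419 nucleotides and the most abundant per kb in complex I, had 11147 at ZT7 in replicate 1 and between 884 and 1514 in the other 4 replicates.

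In complex II, all 4 genes had their highest mean at ZT19, with a median log2 fold of 0.90 from ZT13, and 3 of 4 had an unadjusted p under 0.05 in that pair. Sdhd, a membrane anchor (chr9:50596357-50603812, GRCm38, minus strand), had 864, 874, 851, 1197 and 2405 normalized counts in replicates 1 to 5 of ZT13 and 2522, 2240.4, 1648, 1923 and 4535 at ZT19. At ZT1 it ran from 982 to 1277 and at ZT7 from 875 to 1835, so that the ZT19 libraries lay above all of ZT1 and overlapped with ZT7 and, through ZT13 replicate 5 alone, with ZT13. The log2 fold was 1.05 ± 0.34 from ZT13 and 1.20 ± 0.34 from ZT1 (adjusted p = 0.0986 and 0.0930 in edgeR). Without ZT13 replicate 5, Sdhd and Uqcrc1 passed the adjusted threshold among the 4 time points, where 0.6% of all genes did, and as higher between ZT13 and ZT19, where 1.63% of all genes did and 4.3% in either direction.

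Sdha, the flavoprotein that oxidizes succinate, had 1860.0, 2473, 1876, 2268 and 5732 at ZT13 and 6177, 4155, 4604, 3452 and 4289 at ZT19, and again ZT13 replicate 5 alone overlapped with ZT19. Sdhb had 1833 ± 777 at ZT13 and 3926 ± 1678 at ZT19 (SD, n = 5), and Sdhc 698 ± 358 and 1171 ± 482. The Sdh genes took between 1.58% (ZT7 replicate 1) and 9.15% (ZT13 replicate 5) of all subunit counts, and this share was low in the libraries with many ribosomal protein counts.

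In complex III, all 8 subunits had a fold above 0 in each of the 3 comparisons with ZT19, and 3 had an unadjusted p under 0.05 between ZT13 and ZT19. Uqcrc1, a core protein (chr9:108936633-108949623, plus strand), had the smallest p among the 4 time points. It had 2839, 2973, 3325, 3140.0 and 2840.0 normalized counts in replicates 1 to 5 of ZT1 and 4288, 5278, 2860.5, 3129.6 and 2001 at ZT7. At ZT13 it had 1575, 1998, 2684, 2865 and 6214, and at ZT19 11579.7, 6462, 6013, 3908 and 11250.3. The ZT19 libraries lay above all of ZT1, replicate 4 of ZT19 fell into the range of ZT7, and replicates 3 and 4 lay below ZT13 replicate 5, which stood far above its group. The log2 folds were 1.38 ± 0.39 from ZT1, 1.16 ± 0.39 from ZT7 and 1.35 ± 0.39 from ZT13 (adjusted p = 0.0930, 0.118 and 0.0902 in edgeR).

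Uqcrfs1, the Rieske iron-sulfur protein (chr13:30540308-30545362, minus strand), had 717, 1205, 871, 1228 and 1334 at ZT13 and 1918, 1419, 1631, 2371 and 4037 at ZT19, with no overlap, and a log2 fold of 1.09 ± 0.33. Uqcrc2 had 1197 ± 52.8 at ZT13 and 2204 ± 739.9 at ZT19, also without overlap, though 22.7% of its 100-base stretches also lie in Pdzd9. The counts of the short subunit Uqcr11 were more uneven. At ZT7 it had 23472, 2062, 1771, 2553 and 1257 and at ZT13 1029.6, 16812, 1724, 3824 and 2692. At ZT19 it had 4568, 3097, 3581, 13696 and 9897, so that single libraries of each time point reached several times the level of the others and the groups overlapped throughout.

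**Figure D3:**
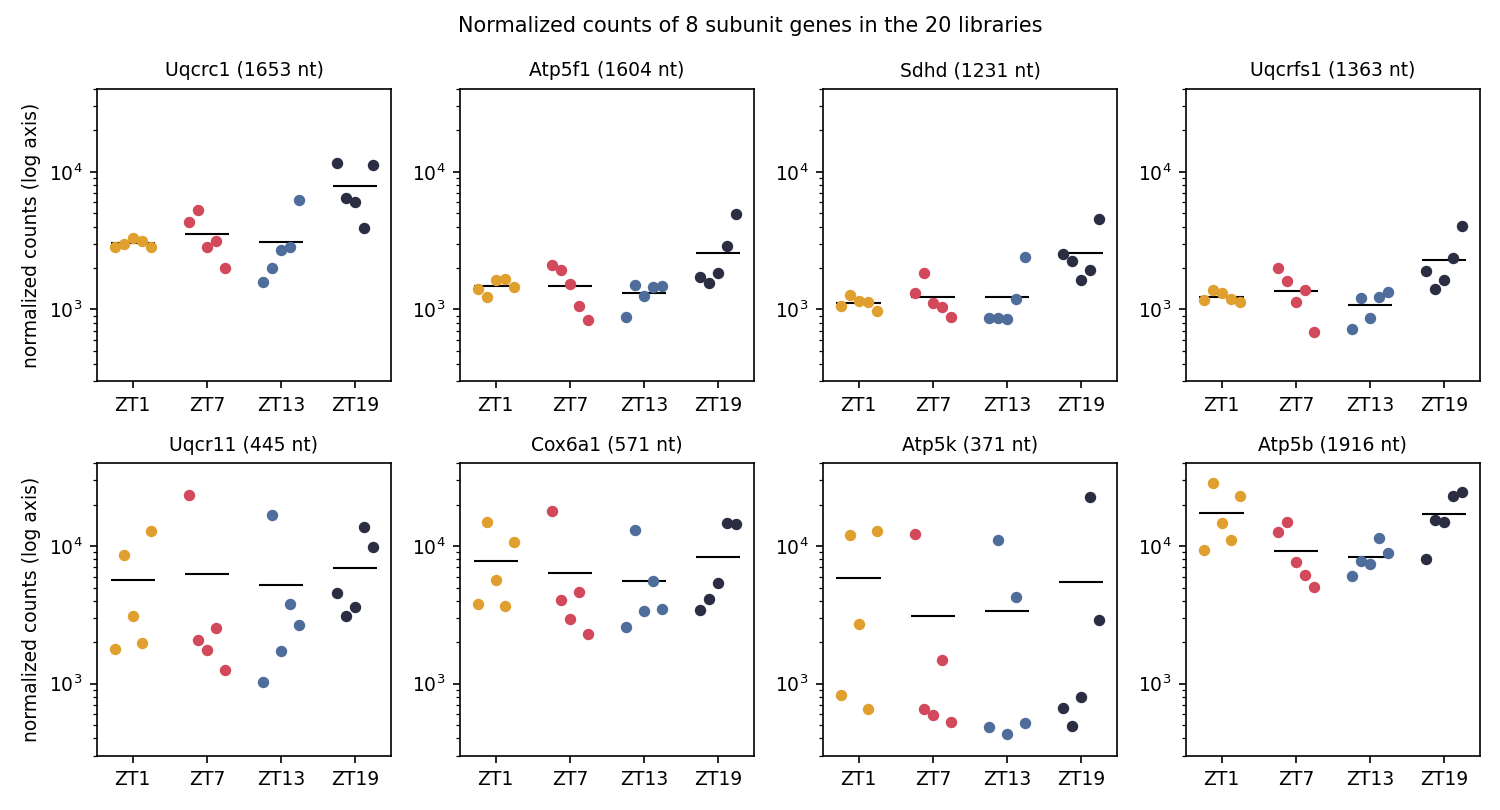
Normalized counts (log axis) of 8 subunit genes in the 20 libraries, 1 point per library and a line at the mean of each time point, with transcript length in nucleotides (nt). For the long transcripts Atp5f1 and Uqcrfs1 all ZT19 points lie above those of ZT13, whereas for Uqcr11 and Atp5k 1 to 2 libraries of each time point lie far above the rest.

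In complex IV, cytochrome c oxidase, 1 of 16 tested subunits (Cox5a, log2 fold 0.92 ± 0.44) had an unadjusted p under 0.05 between ZT13 and ZT19, and the median fold was 0.53. Cox6a1 had 8381 ± 5611 normalized counts at ZT19 and 5622 ± 4325 at ZT13 (SD, n = 5), and Cox4i1 10952 ± 6786 and 6749.9 ± 3685. Cox7b2, a form known from testis, had 1722 normalized counts in ZT1 replicate 5 and at most 117 in any other library, and its adjusted p among the 4 time points was 0.195 in edgeR. Cox8b had the lowest fold, -1.44 ± 1.39.

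In complex V, 16 of 17 genes had a fold above 0 between ZT13 and ZT19 (median 0.86) and 8 an unadjusted p under 0.05, all higher, against 7.28% of all genes higher and 19.2% in either direction. Atp5b (chr10:128083273-128090391, plus strand) had 9432, 28722, 14785, 11057 and 23092 normalized counts at ZT1, 12572, 14853, 7623, 6148 and 5025 at ZT7 and 6056, 7791, 7369, 11399 and 8934 at ZT13. At ZT19 it had 8118, 15358, 14855, 22989.6 and 24609. It was thus high at both ZT1 and ZT19, with a log2 fold of 1.05 ± 0.42 from ZT13 and of -0.02 ± 0.42 from ZT1 to ZT19. Atp5f1, a subunit of the peripheral stalk, had 1317 ± 262 at ZT13 and 2585 ± 1399.9 at ZT19 (SD, n = 5) with no overlap, though 16.8% of its 100-base stretches also lie in 3 other genes and 21.0% of its exon bases overlap Wdr77.

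Atp5k, a small subunit of the membrane part, had 661, 489, 798, 22627 and 2883 at ZT19 and 485, 11120.3, 430.4, 4279.8 and 517 at ZT13. Its SD within time points was 2.10 on the log2 scale, against 0.60 for Atp5b. The genes Atp5s and Atp5sl had log2 folds of 0.82 ± 0.53 and -0.42 ± 0.38, and without them the median of the other 79 was 0.67.

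Transcript length separated the subunits in how far replicates agreed. The 84 genes have a median transcript of 738.5 nucleotides, against 2259.5 over all symbols, and were split at 600 and 1000 nucleotides, bounds chosen after seeing the data. The median SD within time points, on the log2 scale, was 1.27 for the 26 tested subunits under 600 nucleotides, 0.88 for the 27 between and 0.57 for the 28 over 1000. For all genes of the same lengths it was 1.73, 1.63 and 1.16. Between ZT13 and ZT19 an unadjusted p under 0.05 was reached, as higher at ZT19, by 1, 6 and 16 of the subunits in the same order, and by 16 of 454, 121 of 1279 and 1259 of 17256 of all genes of those lengths. The median folds were 0.50, 0.66 and 0.84, against 0.04, 0.06 and -0.23 for all genes. With an offset for the trend of counts on transcript length in each library, 3 of 81 subunits had an unadjusted p under 0.05 between ZT13 and ZT19, all higher at ZT19, where 1296 of 19209 genes were higher and 3182 had such a p in either direction. Between ZT1 and ZT19 it was 20, of which 19 were higher, where 3567 genes were higher and 5442 had such a p in either direction. The median fold from ZT13 was 0.57, against 0.07 over all genes.

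**Figure D4:**
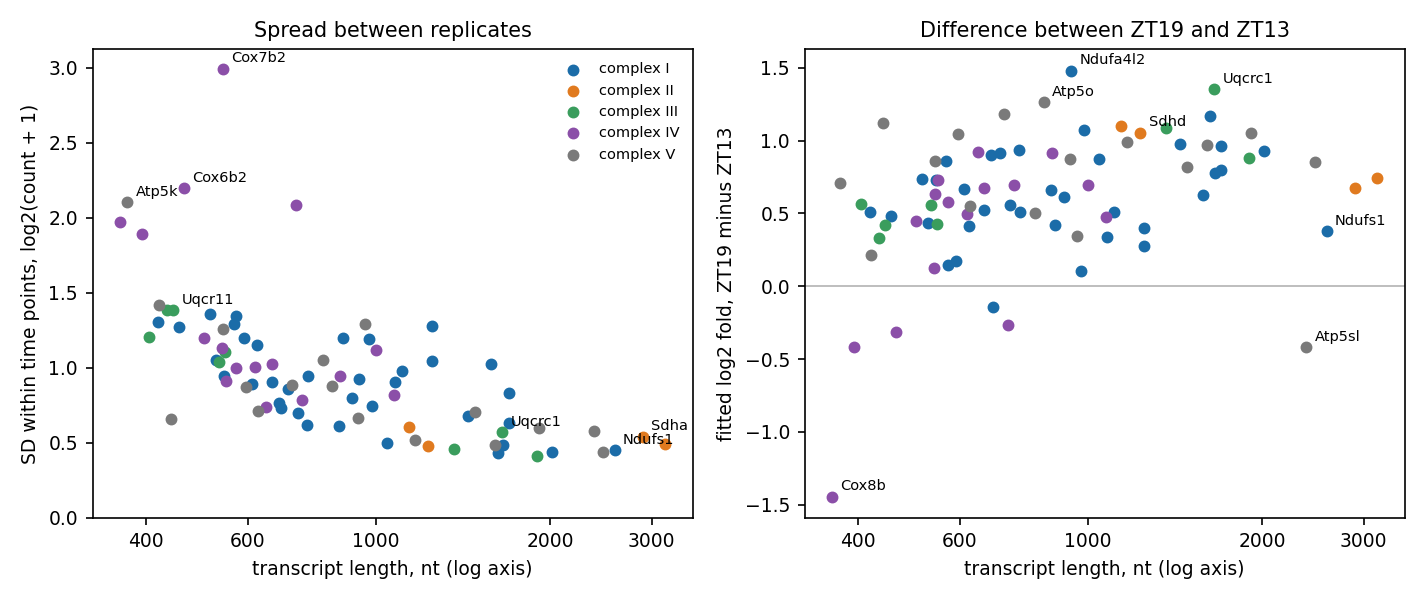
SD of log2(normalized count + 1) within time points (left) and fitted log2 fold from ZT13 to ZT19 (right) of the 81 tested subunit genes against transcript length in nucleotides (nt, log axis), coloured by complex. The spread falls from a median of 1.27 under 600 nucleotides to 0.57 over 1000, and 75 of the 81 folds lie above 0.

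The highest values of the subunits came largely from the same libraries. ZT7 replicate 1 was the highest of its time point for 64 of the 81 subunits, and for 24 of the 26 under 600 nucleotides. Of all 81, ZT13 replicate 2 was highest for 58, ZT1 replicate 5 for 48 and replicate 2 for 25, and ZT19 replicate 4 for 41 and replicate 5 for 36. Of the 26 under 600 nucleotides, ZT13 replicate 2 was highest for 22, ZT1 replicate 5 for 18 and replicate 2 for 7. ZT19 replicate 4 was highest for 21 of these and replicate 5 for 5, whereas replicate 5 was highest for 16 of the 28 over 1000 nucleotides. Cytosolic ribosomal protein genes, which are also short and abundant, took 8.11% of the gene counts in ZT7 replicate 1, 6.17% in ZT13 replicate 2, 7.22% and 6.49% in ZT1 replicates 5 and 2, and 9.79% and 3.87% in ZT19 replicates 4 and 5, and between 0.854% and 3.98% in the other 14 libraries. The share in ZT19 replicate 5 thus lay within the range of these 14. With the ribosomal protein level as a covariate, added after seeing the data, 35 of 81 subunits had an unadjusted p under 0.05 among the 4 time points, against 18.8% of all genes, and 2 passed the adjusted threshold, Uqcrc1 and Sdhd, against 1.78%. Between ZT13 and ZT19 the same fit called 2 of 81 as higher, Uqcrc1 among them, where 1.6% of all genes were called as higher and 2.83% in either direction, and the median fold was 0.32.

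**Figure D5:**
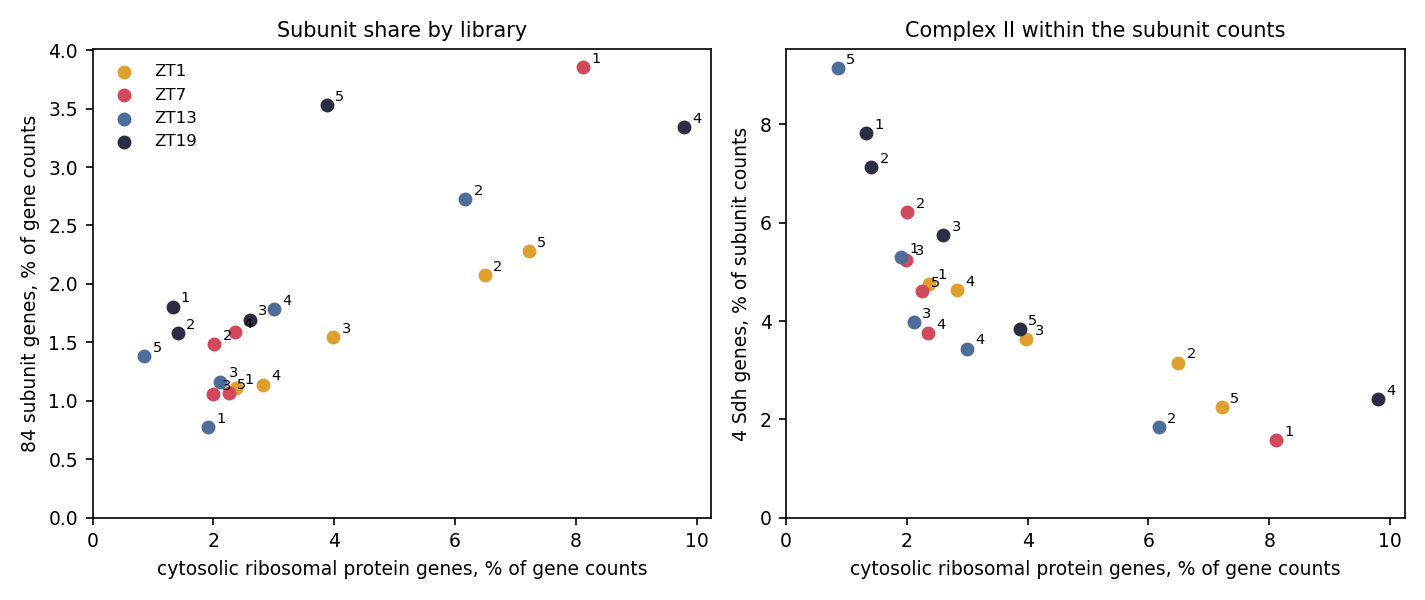
Share of gene counts on the 84 subunit genes (left) and share of the subunit counts on the 4 Sdh genes (right) against the share on cytosolic ribosomal protein genes, 1 point per library with its replicate number. The subunit share runs from 0.778% to 3.85%, and the Sdh share from 9.15% at the lowest ribosomal share to 1.58% in ZT7 replicate 1.

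Further genes of the same metabolism were counted from written lists between ZT13 and ZT19, where 7.28% of all genes were higher at the unadjusted p and 0.588% passed the adjusted threshold in either direction. Among 44 tested assembly factors of the complexes the median log2 fold was 0.54, with 5 higher at an unadjusted p under 0.05 and 0 past the adjusted threshold. Of 17 citric acid cycle genes 9 were higher at the unadjusted p (median 0.74), and 1, Idh3a, a subunit of isocitrate dehydrogenase, passed the adjusted threshold with 372 ± 216 normalized counts at ZT13 and 1139.8 ± 312 at ZT19 (SD, n = 5, log2 fold 1.61 ± 0.33). Mdh2, the most abundant of them, had a fold of 1.23 ± 0.40. Of 18 glycolysis genes 11 were higher at the unadjusted p (median 0.99). Ldha and Ldhb, the subunits of lactate dehydrogenase, rose by 1.77 ± 0.36 and 1.72 ± 0.39, and Pfkfb3, which makes the activator of phosphofructokinase, fell by 1.84 ± 0.40 on the log2 scale, all past the adjusted threshold. Aldoa, the most abundant glycolysis gene, had a fold of 0.84 ± 0.38.

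Of 77 mitochondrial ribosomal protein genes 29 were higher at the unadjusted p (median 0.78), and of 89 cytosolic ones 5 (median 0.52), against 7.28% of all genes, with 0 of either past the adjusted threshold. Of 23 regulators of mitochondrial biogenesis 2 were higher and 2 lower (median 0.06). The 6 subunits and partners that the symbol rule missed had a median of 0.94, with 1.11 ± 0.34 for Cyc1, the cytochrome of complex III. The 13 tested LEC markers had a median of -0.45, and 0 were higher at the unadjusted p.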

How the data were processed

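RNA of sorted dermal LECs was measured in 20 libraries, 5 per time point, grouped by GEO's labels. STAR alignment to mm10 by the authors was followed by counting per gene symbol with HTSeq-count (1.0.0 in the submitters' processing notes), and they deposited raw counts without normalization. They also used DESeq2, whose output is not used here. Counting mode and strand setting are not given in the sources used here, no molecular identifiers were used, and reads with more than 1 place were set apart. Lines for reads on no feature (between 8128420 and 42244800 a library) or ambiguous reads stayed out of library sizes.

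Counts were fitted in R 4.3.3 with edgeR 4.0.16 (TMM, filterByExpr by time point, quasi-likelihood F-test, all 20 libraries), with Benjamini-Hochberg adjustment over 19209 genes and a threshold of 0.05. Comparisons were among 4 time points, for the 6 pairs and for a 24-h cosine. Normalized counts are scaled to a common library size, and log2 values used a pseudocount of 1. Replicates are pools of different mice. Lengths and positions came from GENCODE M21 (GRCm38) for 98.4% of symbols, 1 subunit through an older symbol, and promoters from RefSeq. A floor of 3 counts corresponds to between 0.0714 and 0.670 CPM. The fits were tested on simulated data.

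The genes named are the 6 subunits with the smallest p among the time points, the 3 most abundant per kb in each complex, the Sdh genes, alternative isoforms, the largest rise and fall in each pair among abundant subunits, and the untested ones. Results for 1 subunit are not reported here. Of the citric acid cycle and glycolysis lists, those past the threshold between ZT13 and ZT19 and the most abundant gene are named. Of the cell type markers only Prox1, Lyve1, Krt17, Dsg3 and Higd1b are named, and not all markers past the threshold. Ndufs3, Ndufv1, Ndufa8, Ndufb8, Uqcrc2, Cox5a, Atp5f1, Atp5s, Atp5sl and Cyc1 fall outside this rule and were chosen after their values were seen. The subunits and lists were chosen with earlier results of these data known. Alternatives were DESeq2 1.42.0, RLE normalization (DESeq2's size factors, in edgeR) and total counts, other filters, the replicate number as a block, covariates, a length offset, fits of the compared time points alone and each library left out.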

Additional observations from a re-analysis of the deposited data

Results flagged for a closer look

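In 19 of 170 groups of 5 replicates with a range above 0 (44 named subunits at 4 time points), 1 library lay far from the other 4, as the gap to its nearest neighbour made up more than 0.71 of the range, Dixon's 95% critical value for 5 samples. Chance flags about 1 in 20 groups, or 8.5 of 170. In 13 cases it was ZT7 replicate 1, above the other libraries of ZT7, with gaps of 0.788 for Ndufa1, Ndufa7 and Ndufa2, 0.758 for Uqcr11, 0.725 for Uqcrq, 0.813 for Cox6c, 0.769 for Atp5e, 0.757 for Cox6b1, 0.821 for Cox7a2l, 0.746 for Cox7b, 0.733 for Atp5g1, 0.811 for Atp5j and 0.759 for Cox5b. These 13 values share 1 library and are not independent. In that library 8.11% of gene counts lay on cytosolic ribosomal protein genes, and the part this plays was not tested.

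Of the other 6, Sdha stood high in ZT13 replicate 5 (0.747) and Sdhc in ZT7 replicate 2 (0.765), the libraries of these time points with the highest share of reads on genes. Ndufa10 was low in ZT13 replicate 1 (0.746). The rare isoforms Cox6a2 (ZT7 replicate 5, 0.734) and Cox6b2 (ZT13 replicate 4, 0.735) stood high, and Cox8b had 0 counts in ZT19 replicate 2 (0.838).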

How the results depend on the processing

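The alternatives gave 708 values, of which 619 kept the direction and lay within the spread between replicates or within 1.5 times the count. The subunits past the adjusted threshold, 0 in each comparison, became 2 (among the time points), 4 (ZT1 and ZT19), 5 (ZT7 and ZT19) and 3 (ZT13 and ZT19) with DESeq2, 2 (among the time points), 2 (ZT1 and ZT19) and 2 (ZT13 and ZT19) with the ribosomal protein level as a covariate, 1 (Cox7b2, among the time points) with the length offset, and 6, 8, 8 and 7 in the order first named without ZT7 replicate 2 and ZT13 replicate 5. The last pair of libraries and the ribosomal covariate were chosen after seeing the data, and the cause of these changes was not tested. Where no share of all genes is given above for a fit, its count is not a result about the subunits.

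At the unadjusted p, RLE normalization gave 11 for the 24-h curve and 1 for ZT1 and ZT7, and total counts 1 for ZT1 and ZT7 and 21 for ZT1 and ZT19. No filter gave 5 for ZT1 and ZT13 and 3 for ZT7 and ZT13, and at least 10 counts in 15 libraries gave 1 for ZT1 and ZT13. The genic share of reads as a covariate gave 4 among the time points, 6 for the curve, 3 for ZT1 and ZT19 and 5 for ZT7 and ZT19. The keratinocyte and fibroblast covariates gave 38 among the time points, 42 for the curve, 46 for ZT1 and ZT7, 7 for ZT1 and ZT13, 2 for ZT7 and ZT13 and 4 for ZT13 and ZT19, and median folds of -1.17 from ZT1 to ZT7 and -0.62 from ZT1 to ZT19. The length offset gave 1 for ZT1 and ZT7, 1 for ZT1 and ZT13, 20 for ZT1 and ZT19 and 3 for ZT13 and ZT19. The ribosomal covariate gave 35 among the time points, 29 for the curve, 7 for ZT1 and ZT7, 17 for ZT1 and ZT13, 49 for ZT1 and ZT19 and 2 for ZT7 and ZT13, and the fit without both libraries that stood apart gave 1 for ZT7 and ZT13. Where no count over all genes is given above, as for the curve with covariates, these counts are not a result about the subunits.

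Same-numbered replicates come from different mice. Their deviations correlated between -0.547 and 0.348, and all 5 were above 0 only for ZT1 and ZT13 (0.088 to 0.326). These values cannot decide whether the same number stands for a shared batch. With the replicate block 0 subunits passed the adjusted threshold, and at the unadjusted p 9 did among the time points, 9 for the curve and 0 for ZT1 and ZT7.

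With 1 library left out, the count at the adjusted threshold ran from 0 to 2 among the time points and for ZT13 and ZT19 (2 without ZT13 replicate 5), from 0 to 2 for ZT1 and ZT19 (2, Uqcrc1 and Sdhd, without ZT19 replicate 4) and stayed 0 for the other pairs and the curve. At the unadjusted p it ran from 7 to 27 among the time points, 6 to 39 for the curve, 0 to 18 for ZT1 and ZT7, 2 to 7 for ZT1 and ZT13, 6 to 16 for ZT1 and ZT19, 0 to 4 for ZT7 and ZT13, 10 to 59 for ZT7 and ZT19 and 7 to 39 for ZT13 and ZT19. The lowest counts with ZT19 came without ZT19 replicate 5, the highest for ZT7 and ZT19 without ZT7 replicate 1 and for ZT13 and ZT19 without ZT13 replicate 2. The curve also had 11 without ZT7 replicate 3 or ZT19 replicate 4 and 10 without ZT7 replicate 5. Counts over all genes in these fits are given above only in part, so the ranges are not a result about the subunits. Median folds ran from -0.77 to 0.07 (ZT1 to ZT7), -0.63 to 0.10 (ZT1 to ZT13), 0.11 to 0.66 (ZT1 to ZT19), -0.53 to 0.53 (ZT7 to ZT13), 0.15 to 1.22 (ZT7 to ZT19) and 0.32 to 1.08 (ZT13 to ZT19).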
